A study of Homo sapiens with 4 samples.

Results

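The genes described here make cholesterol and fatty acids, control that synthesis or move sterols out of cells. They were taken from a list of 35 names, and each was represented by the probe sets of the array whose annotation names that gene alone. Of the 35, 32 were measured, by 79 probe sets, of which 71 reached a signal of 56.4, the median of all signals, on at least 1 array. The remaining 3, FDFT1, CYP51A1 and FADS1, had no probe set that met the rule and are not analysed here. All genes past that filter numbered 13717, and each gene is given by its brightest probe set unless stated otherwise.

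The cells were Jurkat, an established human T cell leukaemia line. A control construct was carried by one line, called control cells here, and a short hairpin RNA by the other, called shIKKE cells. The hairpin targets IKKε, a kinase of NF-κB and interferon signalling encoded by IKBKE. The control construct is named a vector in the titles and a control hairpin in the series' design. Each line received solvent, or PMA at 10 ng/ml with ionomycin at 0.5 uM, for 3 h, which gave 4 groups of 1 array each. PMA activates protein kinase C and ionomycin raises cell calcium. Whether a line is 1 clone or a pool, and how many hairpins were used, is not given in the sources used here. With 1 array per group no difference between arrays has a replicate error or a test, and differences are called here where they reach 2-fold.

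Cholesterol is built from acetyl-CoA through mevalonate, farnesyl diphosphate, squalene and lanosterol. The transcription factors SREBP-1 and SREBP-2, encoded by SREBF1 and SREBF2, switch on most genes of this route and of fatty acid synthesis. They are carried by SCAP and held in the endoplasmic reticulum by INSIG proteins while sterols are plentiful. The nuclear receptor LXR senses oxidised sterols and switches on export genes, among them ABCA1 and ABCG1, and MYLIP, whose protein degrades the LDL receptor. In T cells, activation and growth are known to raise sterol and fatty acid synthesis and to lower LXR activity.

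Signals are MAS5 intensities on a linear scale, and differences are of log2 of the signal plus 14.1, so that 1 is 2-fold and changes of dim genes are understated. The median signal of an array lay between 48.8 and 69.1 and was higher on both stimulated arrays, and the 5′ to 3′ ratio of ACTB, a measure of RNA integrity, lay between 0.244 and 0.401. All 10 T cell markers were measured, with signals from 353 to 28570, and their summed signal lay between 68168 and 74642. Of these markers, CD2 read 1976 and 760.4 in control cells and 500.3 and 352.8 in shIKKE cells, with solvent and with stimulation, and LAT read 3713 and 10071, and 4102 and 6522. Marker genes of B cells, myeloid cells, and erythroid or epithelial cells reached signals of at most 408, 107 and 220. IKBKE read 340 in control cells and 180 in shIKKE cells with solvent, and 520 and 248 with stimulation. The 2 solvent arrays differed in early response genes: EGR1 read 9953 in control cells and 1035 in shIKKE cells, and CD69 read 1425 and 428. Whether the former array is high or the latter low, and whether array or line differs, cannot be told apart with 1 array per group. The solvent array of control cells is subtracted in both the response of control cells and the difference between the lines with solvent, so it enters both with the same sign. Its part in the results below was not tested, and the response of control cells is therefore also given against the solvent array of shIKKE cells, a baseline chosen after seeing the data that brings in the difference between the lines. Each such value is the response of control cells less the difference between the lines with solvent. It thus reverses wherever the latter is the larger, and is no separate test of the response.

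Sterol genes read higher in shIKKE cells than in control cells in both treatments, and the differences were mostly under 2-fold. With solvent, 25 of the 32 genes were above control cells, with a median log2 difference of 0.44 against -0.05 over all genes. With stimulation, on a separate pair of arrays, 26 were above it, with a median of 0.49 against 0.03. In both treatments at once, 23 of 32 genes (71.9%) were higher in shIKKE cells, against 27.2% of all genes and 26.2% of genes above the median level. The list was chosen with earlier results of these data known, so this contrast is a description and not independent support. Of the 16 measured enzymes that lead from acetyl-CoA to cholesterol, 15 were higher in both treatments, and MVK, which phosphorylates mevalonate, was the exception. These counts, 23 and 15, were the same after quantile normalization and after median centring, and were 24 and 16 when each gene was the median of its probe sets.

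At the 2-fold limit, 7 of the 32 genes (21.9%) were higher in shIKKE cells with solvent, against 4.34% of all genes, and 2 (6.25%) were lower, against 6.68%. They were HMGCS1, IDI1, SQLE, LSS, MSMO1, FASN and SCD on the higher side, and ABCA1 and ABCG1 on the lower. With stimulation 4 (12.5%) were higher, HMGCS1, MVD, SC5D and DHCR7, against 5.99% of all genes, and 0 were lower, against 2.37%. HMGCS1 was the 1 gene of the 32 that was at least 2-fold higher in both treatments, which 0.751% of all genes were.

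PMA and ionomycin gave no common direction. In control cells 18 of the 32 genes read higher than with solvent, with a median log2 difference of 0.05 against -0.07 over all genes. Of these, 6 (18.8%) were at least 2-fold higher, HMGCS1, IDI1, LSS, MSMO1, STARD4 and FASN, against 7.57% of all genes, and 2 (6.25%), ABCG1 and MYLIP, were at least 2-fold lower, against 6.44%. Against the solvent array of shIKKE cells, 0 were at least 2-fold higher, against 8.02% of all genes, and 3 were at least 2-fold lower, SREBF1, SCD and MYLIP, against 4.38%. The median was then -0.39, against -0.04 over all genes. In shIKKE cells 17 of 32 read higher with stimulation, with a median of 0.07 against -0.01 over all genes. There 3 (9.38%) were at least 2-fold higher, HMGCS1, INSIG1 and STARD4, against 10.3% of all genes, a share near that of the background, and 0 were lower, against 2.68%. HMGCS1 and STARD4 were the genes at least 2-fold higher in both lines, 2 of 32 (6.25%) against 3.29% of all genes. Higher by any amount in both lines were 11 of 32 (34.4%), against 28.6% of all genes.

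**Figure D1:**
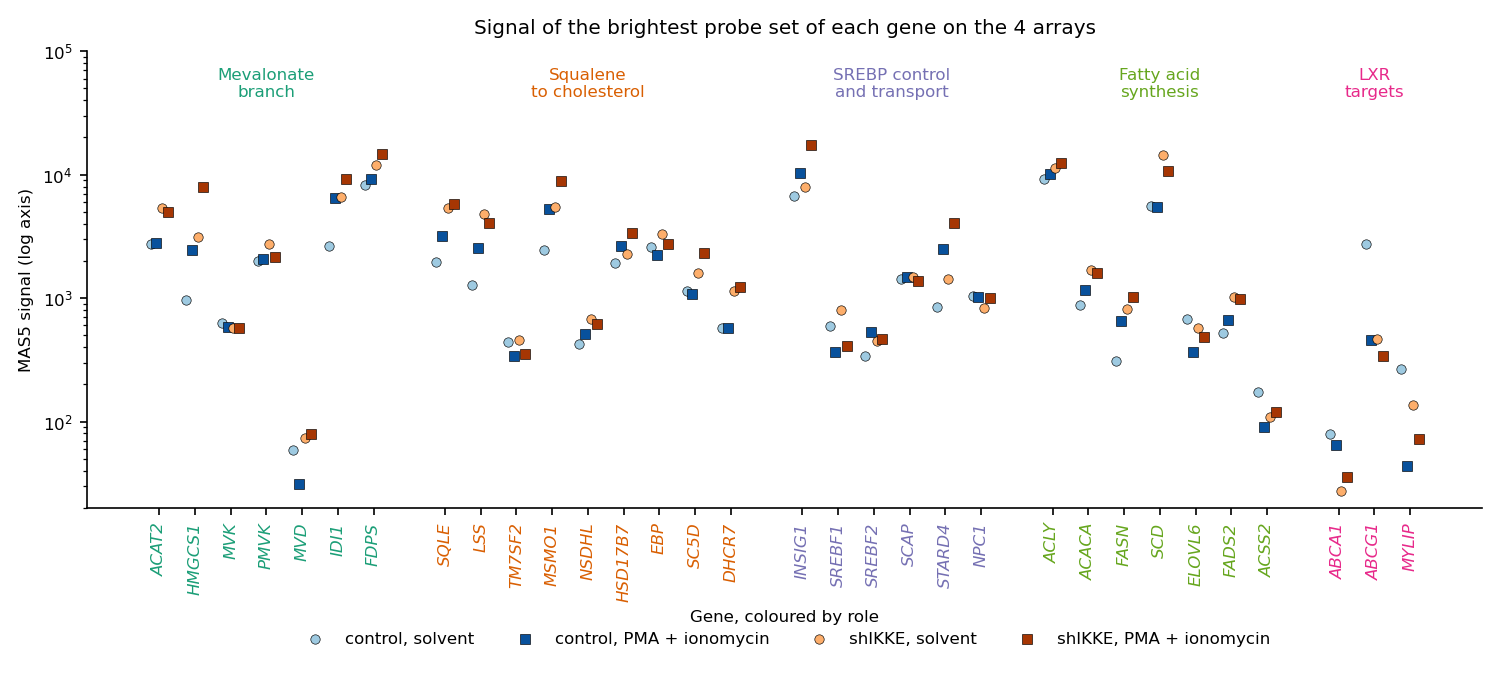
MAS5 signal (log axis) of the brightest probe set of each of the 32 genes, grouped and coloured by role, with 1 point for each of the 4 arrays and no error bars because each group is 1 array. Both shIKKE points lie above both control points for HMGCS1, SQLE and SCD, while ABCG1 is at 2755 in control cells with solvent and between 342 and 464 on the other arrays.

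The first group of enzymes makes farnesyl diphosphate from acetyl-CoA. HMGCS1, the cytosolic synthase that makes HMG-CoA, read 973 in control cells with solvent, 2432 in control cells with stimulation, 3098 in shIKKE cells with solvent and 7964 in shIKKE cells with stimulation. It was thus lowest in solvent-treated control cells and highest in stimulated shIKKE cells, and the line and the treatment each went with a higher signal. The log2 difference between the lines was 1.66 with solvent and 1.71 with stimulation, and that with stimulation was 1.31 in control cells and 1.36 in shIKKE cells. Its dimmer probe set read 96.6, 374, 350 and 1103 in the same order and gave 1.72, 1.52, 1.81 and 1.62. Against the solvent array of shIKKE cells stimulated control cells were lower in HMGCS1, with a log2 difference of -0.35. This follows from its difference between the lines with solvent (1.66), which was larger than its response in control cells (1.31).

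IDI1, which isomerises isopentenyl diphosphate, was low on 1 array only. It read 2642 in control cells with solvent, and 6458, 6557 and 9294 in stimulated control cells, solvent-treated shIKKE cells and stimulated shIKKE cells. Its log2 differences were 1.29 with stimulation in control cells and 0.50 in shIKKE cells, and 1.31 between the lines with solvent and 0.52 with stimulation. A second probe set of IDI1 gave 1.34, 0.59, 1.24 and 0.50, whereas the dimmest gave 0.14, 0.39, -0.03 and 0.22, and the last gave -0.43, -0.33, -0.22 and -0.11. With the median of the 4 probe sets, the differences of IDI1 that reached 2-fold became 0.45 and 0.51, and against the other solvent array its difference with stimulation in control cells was -0.022.

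ACAT2, the cytosolic thiolase at the head of the route, followed the line and not the treatment. It read 2729 and 2776 in control cells and 5360 and 4999 in shIKKE cells, with solvent and with stimulation, a log2 difference between the lines of 0.97 and 0.85. FDPS, which makes farnesyl diphosphate, read 8185 and 9153 in control cells and 11898 and 14567 in shIKKE cells (0.54 and 0.67). MVD, the decarboxylase of the branch, was dim, at 58.6 and 31.1 in control cells and 73.5 and 78.7 in shIKKE cells. Its log2 difference of 1.04 between the stimulated lines was under 2-fold after quantile normalization (0.82) and with a pseudocount at the median signal (0.63). The kinases MVK and PMVK lay within 2-fold in all 4 differences, which ran from -0.34 to 0.45.

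The second group converts squalene to cholesterol. LSS, which closes the ring to lanosterol, had the largest increase of the 32 genes in shIKKE cells with solvent by its brightest probe set. It read 1265 in control cells with solvent, 2550 with stimulation, and 4774 and 4063 in shIKKE cells. Both shIKKE arrays were above both control arrays, and stimulation went with a higher signal in control cells and a slightly lower one in shIKKE cells. The log2 differences between the lines were 1.90 with solvent and 0.67 with stimulation. Those with stimulation were 1.003 in control cells, just inside the limit, and -0.23 in shIKKE cells. A second probe set of LSS was dim, at 39.6 and 62.1 in control cells and 52.7 and 113 in shIKKE cells. It gave 0.32 and 0.74 between the lines, and 0.50 and 0.93 with stimulation in control and shIKKE cells. The median of both was 1.11 between the lines with solvent, and 0.75 and 0.35 with stimulation, so the lower signal in stimulated shIKKE cells was that of the brightest probe set. The difference of 1.003 was 0.86 after median centring and -0.90 against the other solvent array.

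SQLE, the epoxidase that commits squalene to sterols, read 1972 and 3159 in control cells and 5386 and 5752 in shIKKE cells, with solvent and with stimulation. The log2 differences between the lines were 1.44 and 0.86, and all 3 dimmer probe sets of SQLE were higher in shIKKE cells as well, by 0.96 to 1.95 with solvent and 0.73 to 1.27 with stimulation. MSMO1, a sterol methyl oxidase, read 2442 and 5261 in control cells and 5443 and 8883 in shIKKE cells. Stimulated control cells and solvent-treated shIKKE cells were thus close in MSMO1, as they were in IDI1. Its log2 differences were 1.15 and 0.75 between the lines, and with stimulation 1.10 in control cells, 0.96 after median centring and -0.049 against the other solvent array, and 0.71 in shIKKE cells.

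Of the late steps, DHCR7 and SC5D reached 2-fold between the stimulated lines. DHCR7, the final reductase, read 574 and 567 in control cells and 1134 and 1233 in shIKKE cells, with solvent and with stimulation. The 2 control arrays were nearly equal in DHCR7 and so were the 2 shIKKE arrays, with log2 differences between the lines of 0.97 and 1.10. Its second probe set gave 1.38 and 0.54 between the lines and 0.53 with stimulation in control cells, and the median of the probe sets was 0.82 with stimulation. SC5D, a sterol desaturase, read 1136 and 1075 in control cells and 1605 and 2300 in shIKKE cells, with differences between the lines of 0.49 and 1.09 and with stimulation of -0.08 in control cells and 0.52 in shIKKE cells. NSDHL, EBP, HSD17B7 and TM7SF2 lay within 2-fold throughout, and their differences between the lines ran from 0.05 to 0.65. Those with stimulation ran from -0.38 to 0.56, and TM7SF2 (-0.38 and -0.37) and HSD17B7 (0.46 and 0.56) differed more with stimulation than between the lines (0.05 and 0.06, and 0.26 and 0.36).

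**Figure D2:**
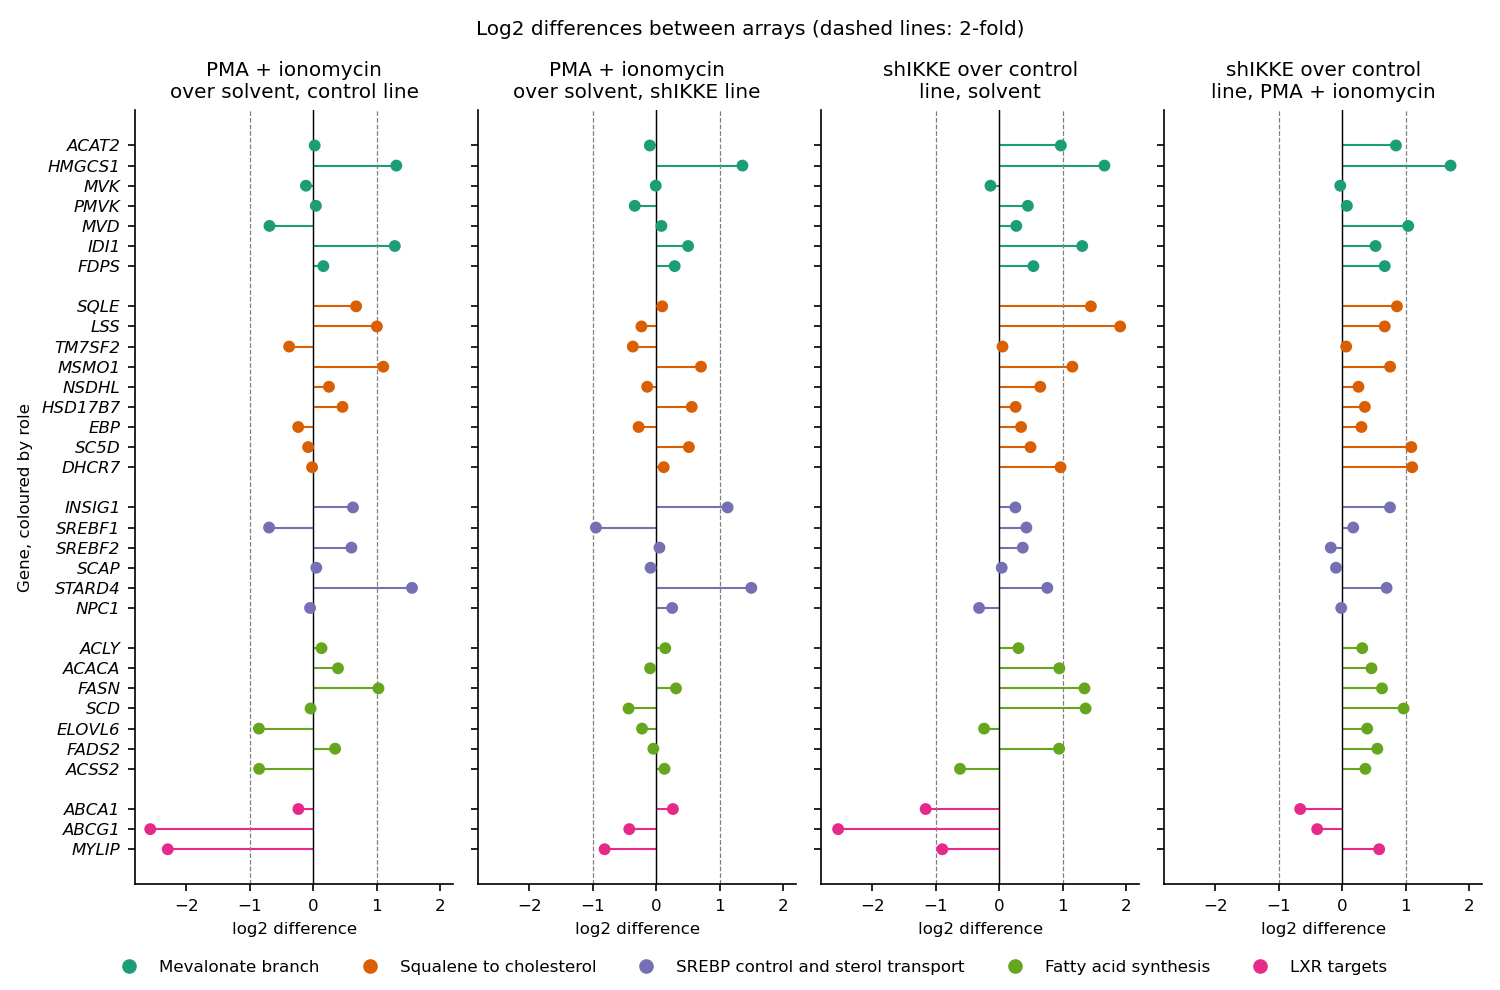
Log2 differences of the 32 genes (rows, coloured by role) in the 4 comparisons (panels), each from 1 array against another, with dashed lines at 2-fold. In the panels for the lines 25 genes lie to the right of 0 with solvent and 26 with stimulation, and the LXR targets ABCG1 and MYLIP reach -2.56 and -2.29 with stimulation in control cells.

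The upstream sequences of 4 genes are shown because HMGCS1 and STARD4 were higher with stimulation in both lines, MSMO1 was higher in all 4 differences, and SREBF2 encodes the main regulator of the sterol enzymes. They are the 250 bases before the RefSeq start of each gene, 5′ to 3′ along the gene (GRCh38.p14), and RefSeq windows were found for 30 of the 35 genes. HMGCS1 lies at chr5:43313413-43313662 (minus strand, the one of its 2 windows with more CCAAT boxes), STARD4 at chr5:111512536-111512785 (minus strand), MSMO1 at chr4:165327419-165327668 (plus strand) and SREBF2 at chr22:41832855-41833104 (plus strand). Capitals mark CCAAT, the box bound by NF-Y, a partner of SREBP, on either strand, and in SREBF2 also TCACNCCAC, a form of the sterol regulatory element bound by SREBP.
HMGCS1: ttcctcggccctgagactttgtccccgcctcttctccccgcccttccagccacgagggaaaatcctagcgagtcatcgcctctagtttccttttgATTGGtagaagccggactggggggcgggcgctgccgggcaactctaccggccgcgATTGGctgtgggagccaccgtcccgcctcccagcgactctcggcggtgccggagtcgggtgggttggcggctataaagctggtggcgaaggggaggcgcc
STARD4: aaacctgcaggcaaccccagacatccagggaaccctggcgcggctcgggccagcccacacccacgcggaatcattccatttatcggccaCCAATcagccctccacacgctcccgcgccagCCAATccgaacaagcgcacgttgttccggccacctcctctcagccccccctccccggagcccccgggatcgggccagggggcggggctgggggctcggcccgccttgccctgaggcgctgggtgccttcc
MSMO1: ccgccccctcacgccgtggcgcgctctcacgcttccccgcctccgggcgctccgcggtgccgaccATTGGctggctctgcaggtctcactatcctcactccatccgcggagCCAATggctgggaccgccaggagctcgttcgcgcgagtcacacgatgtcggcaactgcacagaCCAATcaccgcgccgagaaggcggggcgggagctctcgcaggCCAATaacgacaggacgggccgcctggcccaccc
SREBF2: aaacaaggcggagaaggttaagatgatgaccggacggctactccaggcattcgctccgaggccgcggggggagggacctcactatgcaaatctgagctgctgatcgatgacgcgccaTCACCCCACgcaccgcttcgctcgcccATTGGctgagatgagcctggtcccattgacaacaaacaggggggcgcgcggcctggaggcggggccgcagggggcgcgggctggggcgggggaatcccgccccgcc

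CCAAT boxes were frequent in these windows. Counted on both strands of the whole windows, which run to 50 bases past the start, 26 of 40 windows of the listed genes (65.0%) held CCAAT, and 15 of 20 windows of sterol synthesis enzymes (75.0%), against 34.6% of all 35116 windows. MSMO1 held 4 boxes, HMGCS1 and STARD4 2 each, and SREBF2 1. The sterol element TCACNCCAC was found in 1 of the 40 windows, that of SREBF2, where its first base lies 133 bases before the start, and in 1.13% of all windows. The E-box CACGTG was found in 6 of 40 windows (15.0%), in ABCA1, INSIG1, LSS, SC5D and SCAP, against 7.26% of all. The LXR repeat DR4, a pair of half-sites with 4 bases between them, was in 0 of the 40 windows and in 0.0740% of all. FDFT1, SQLE, ACAT2, FASN and the LXR target ABCG1 had no window and were not searched. A match is a stretch of letters and no measured binding site. The lack of a match does not show that a site is absent, because sites elsewhere or of other letters were not searched.

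Among the genes that control SREBP, SREBF1, SREBF2 and SCAP lay within 2-fold in all 4 differences by their brightest probe sets, and INSIG1 reached 2-fold in 1. INSIG1, both a target and an inhibitor of SREBP, read 6702 and 10354 in control cells and 7999 and 17453 in shIKKE cells, with solvent and with stimulation. It was higher with stimulation in both lines, by log2 differences of 0.63 and 1.12, the latter 0.90 after median centring and 0.85 with the median of its probe sets. Between the lines INSIG1 differed by 0.25 and 0.75, and its 2 dimmer probe sets were also higher in shIKKE cells, by 0.69 to 0.95 with solvent and 0.68 to 0.85 with stimulation.

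SREBF2 was lowest in control cells with solvent by each of its 3 probe sets. The brightest read 342 and 527 in control cells and 447 and 464 in shIKKE cells, and lay within 2-fold in all 4 differences. The others read 166, 336, 365 and 464, and 104, 337, 234 and 368, in the order of control with solvent, control with stimulation, shIKKE with solvent and shIKKE with stimulation. They gave log2 differences of 0.96 and 1.58 with stimulation in control cells and of 1.08 and 1.08 between the lines with solvent, so the probe sets of SREBF2 differed in size but not in direction there.

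SREBF1 went the other way with stimulation. It read 596 and 363 in control cells and 807 and 411 in shIKKE cells, a log2 difference of -0.69 and -0.95. The latter was -1.01 after quantile normalization and -1.17 after median centring. Both stimulated arrays were below both solvent arrays in SREBF1, but its dimmer probe set gave -0.25 and 0.08. SCAP, the escort of SREBP, read 1430, 1480, 1470 and 1382 in the same order and was the steadiest of the 4 regulators, with log2 differences from -0.10 to 0.05.

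STARD4, a carrier that moves cholesterol between membranes, had the largest increase with stimulation of the 32 genes in both lines. It read 841 with solvent and 2500 with stimulation in control cells, and 1432 and 4067 in shIKKE cells. Both stimulated arrays were above both solvent arrays, with log2 differences of 1.56 and 1.50, and it was higher in shIKKE cells by 0.76 and 0.70. Against the other solvent array the response of control cells in STARD4 was 0.80, because its difference between the lines with solvent (0.76) was smaller than that response (1.56). NPC1, which releases cholesterol from lysosomes, read between 838 and 1047 by its brightest probe set and lay within 2-fold. Its dimmer probe sets past the filter read 3.5 and 104, and 63.2 and 134, in control cells without and with stimulation, and 11.8 and 98.5, and 48.3 and 187, in shIKKE cells, so that the probe sets of NPC1 disagreed.

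Of the genes of fatty acid synthesis, SCD and FASN reached 2-fold between the lines with solvent, and 0 of 7 did with stimulation. SCD, the desaturase that makes oleate, read 5598 and 5441 in control cells and 14388 and 10644 in shIKKE cells, with solvent and with stimulation. Both shIKKE arrays were above both control arrays in SCD, with log2 differences of 1.36 and 0.97, and its 3 dimmer probe sets gave 1.47 to 3.20 with solvent and 0.65 to 1.39 with stimulation. Of these dimmer probe sets, 2 were higher with stimulation in control cells, by 1.83 and 1.80 from signals of 17.6 and 15.4, where the brightest gave -0.04 and the median of all was 0.95. FASN, the fatty acid synthase, read 312 and 651 in control cells and 813 and 1012 in shIKKE cells. Its log2 differences were 1.34 and 0.63 between the lines, and with stimulation 1.03 in control cells, 0.98 after quantile normalization and -0.31 against the other solvent array, and 0.31 in shIKKE cells. A second FASN probe set, at 62.9 or below, was lower in shIKKE cells (log2 -1.17 and -1.52), and the median of both was 0.09 with solvent and -0.45 with stimulation.

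Of the other genes of this group, ACACA, the carboxylase that makes malonyl-CoA, read 875 and 1152 in control cells and 1700 and 1591 in shIKKE cells (log2 0.95 and 0.46). FADS2, a desaturase of polyunsaturated fatty acids, read 520 and 665, and 1013 and 982 (0.94 and 0.55). Both lay just under 2-fold with solvent by these probe sets. A second probe set of ACACA gave 0.22 with solvent and 0.14 with stimulation. That of FADS2, at signals of 149 or below, gave 1.69 and 1.46. ACLY, which supplies acetyl-CoA from citrate, differed by 0.30 and 0.32 between the lines. The elongase gene ELOVL6 and the acetyl-CoA synthetase gene ACSS2 were lower in shIKKE cells with solvent (-0.24 and -0.62) and higher with stimulation (0.39 and 0.36). Both were lower with stimulation in control cells (-0.85 each). These values are of the brightest probe sets. Between the lines, a dimmer probe set of ELOVL6 gave -0.16 with solvent and 0.89 with stimulation. Another gave 0.30 and -0.05, so the probe sets of ELOVL6 disagreed. All 7 measured genes of fatty acid synthesis were above control cells with stimulation and 5 of 7 with solvent, with medians of 0.46 and 0.94. Of all genes, 53.5% were above control cells with stimulation and 46.3% with solvent.

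**Figure D3:**
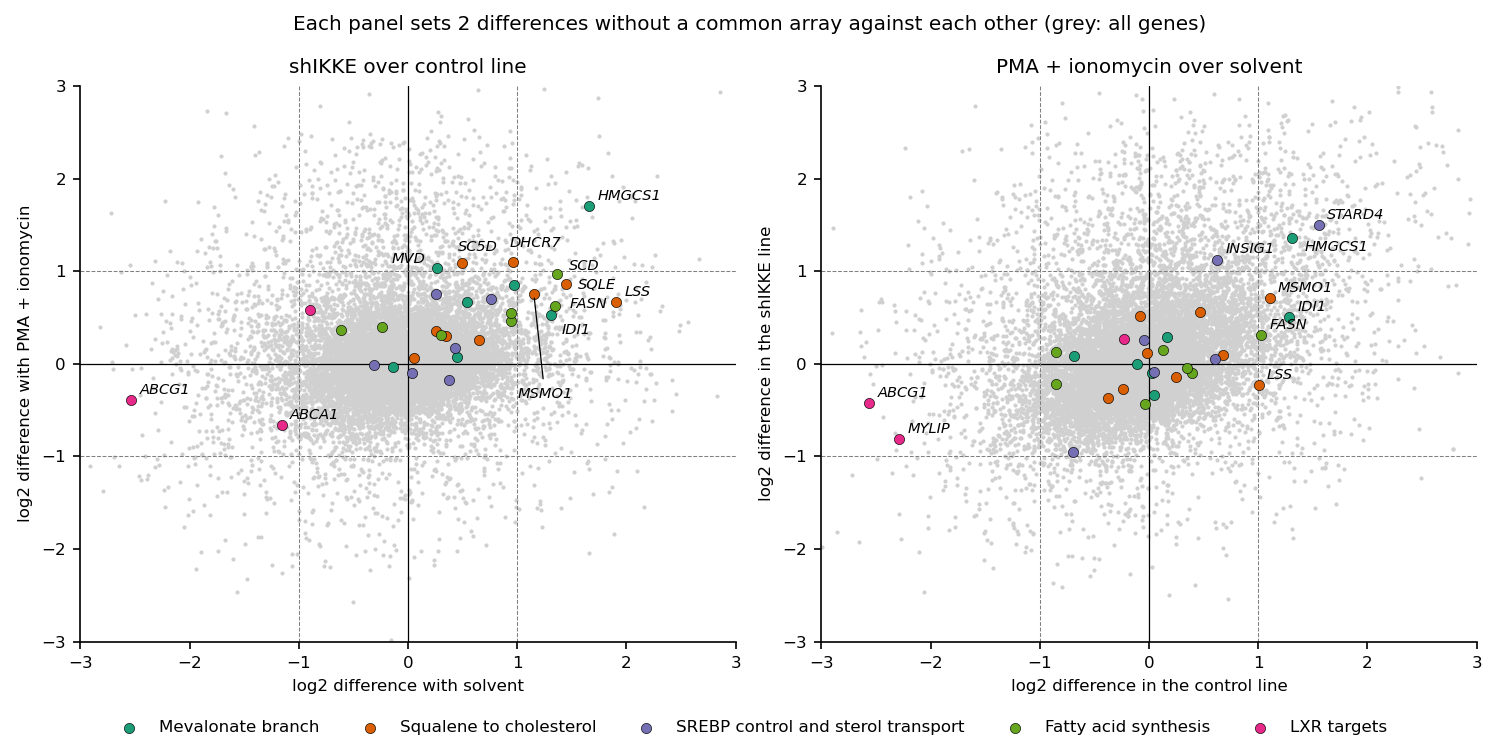
Log2 differences of all 13717 genes (grey) and of the 32 genes (coloured by role), with the shIKKE over control difference with solvent against that with stimulation on the left, and the response of control cells against that of shIKKE cells on the right. The 2 differences within a panel share no array, and points beyond 3 on either axis are not drawn. Of the 32 genes, 23 (71.9%) lie above 0 on both axes on the left and 11 (34.4%) on the right. Of all genes, 27.2% do so on the left and 28.6% on the right.

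The 3 LXR targets differed from each other. ABCG1, a cholesterol exporter, read 2755 in control cells with solvent, 454 in control cells with stimulation, 464 in shIKKE cells with solvent and 342 in shIKKE cells with stimulation. That array was high and the other 3 were close to each other, with log2 differences of -2.56 with stimulation in control cells, -2.53 between the lines with solvent, and -0.42 and -0.39 in the other pairs. Each of the 3 dimmer probe sets of ABCG1 showed it too, with -1.85, -1.53 and -1.32 with stimulation in control cells and -1.80, -1.50 and -1.64 between the lines with solvent. Against the solvent array of shIKKE cells stimulated control cells differed by -0.030 in ABCG1. The array on which ABCG1 was high also had the higher EGR1 and CD69 signals of the solvent arrays. By the brightest probe sets it had the lowest signals of HMGCS1, IDI1, LSS, SQLE, MSMO1 and FASN, named after their values were seen. DHCR7, SCD, SC5D and MVD, also higher in shIKKE cells, were instead lowest in stimulated control cells. Whether these readings share a cause was not tested.

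MYLIP, whose protein marks the LDL receptor for degradation, was lower with stimulation in both lines. It read 267 and 43.4 in control cells and 137 and 71.9 in shIKKE cells, with solvent and with stimulation, a log2 difference of -2.29 and -0.81. Both stimulated arrays were below both solvent arrays in MYLIP. Its 3 dimmer probe sets past the filter gave -1.65, -0.68 and -0.68 in control cells and -1.34, -1.98 and -0.49 in shIKKE cells, all in the same direction. Between the lines the brightest probe set of MYLIP differed by -0.89 with solvent and by 0.58 with stimulation. The 3 dimmer ones gave -0.31, 0.81 and -0.92 with solvent, and -0.0008, -0.49 and -0.73 with stimulation, so the probe sets disagreed between the lines. Against the solvent array of shIKKE cells the brightest probe set differed by -1.39 with stimulation in control cells. ABCA1, the exporter that loads cholesterol onto apolipoproteins, was dim, at 78.6 and 64.8 in control cells and 27.5 and 35.8 in shIKKE cells. Its log2 difference between the lines with solvent, -1.16, was -0.69 with a pseudocount at the median signal. With stimulation it was -0.66, and a second probe set of ABCA1 gave -0.95 with solvent and 0.65 with stimulation.

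**Figure D4:**
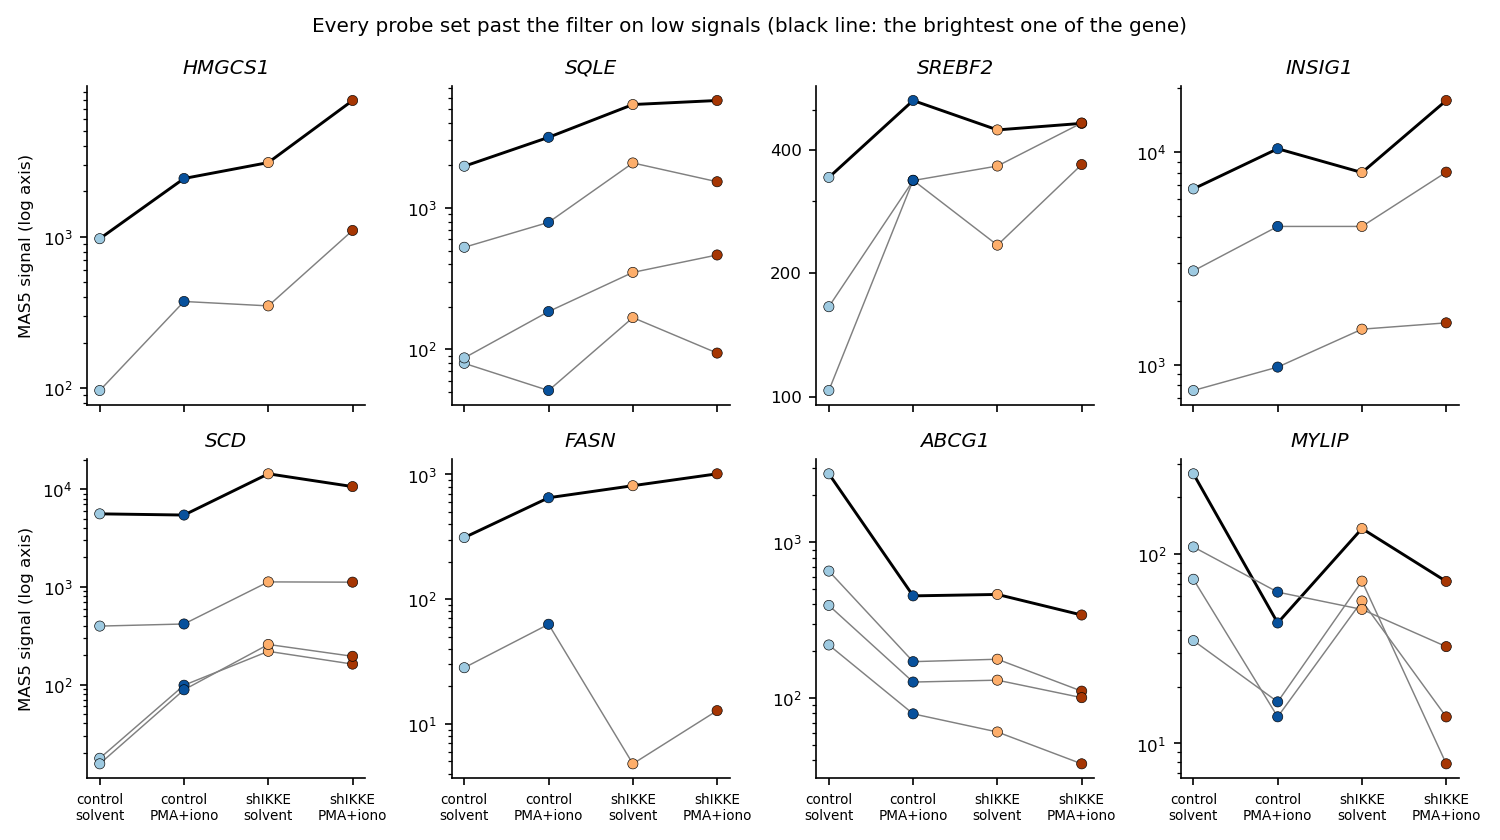
MAS5 signal (log axis, its own range in each panel) on the 4 arrays of every probe set past the filter for 8 of the genes, with the brightest probe set in black and the dimmer ones in grey. All 4 probe sets of ABCG1 are highest in control cells with solvent, both of HMGCS1 are lowest there, and those of FASN differ in direction between the lines.

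Probe sets of 1 gene did not always agree. Past the filter, 21 of the 32 genes had several probe sets. For all of these to point the same way was seen in 15 of the 21 genes between the lines with solvent, 13 with stimulation, and in 11 and 12 genes for stimulation in the control and shIKKE cells. Among genes at least 2-fold different by the brightest probe set, 13 of 16 dimmer probe sets had the same direction between the lines with solvent, and 11 of 12 for stimulation in control cells.

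Other genes of these pathways, from lists that hold none of the 32, were mostly within 2-fold. Of 14 measured genes of sterol synthesis and the SREBP pathway (20 listed), 0 were at least 2-fold different in any of the 4 comparisons, and their medians between the lines were 0.09 with solvent and 0.01 with stimulation. TMEM97, a sterol-regulated membrane protein gene, had the largest increase in shIKKE cells with solvent among these, at 3746 and 5885 (log2 0.65), and INSIG2, the other INSIG gene, was lower there, at 1488 and 900 (-0.72). Of 22 measured genes of fatty acid and lipid synthesis (28 listed), whose medians between the lines were -0.08 with solvent and 0.10 with stimulation, 0 were at least 2-fold higher and 1 lower in shIKKE cells with solvent, ELOVL4, an elongase of very long chains, at 3501 and 1370 (-1.34). With stimulation in control cells 0 were higher and 2 lower, ELOVL4 (-1.09) and the malic enzyme gene ME1 (60.7 and 19.8, -1.14), and in shIKKE cells the acyl-CoA synthetases ACSL5 (20.2 and 79.0, 1.44) and ACSL4 (600 and 1218, 1.005) were higher and ME1 (-1.20) and ELOVL3 (-1.01) lower. Between the stimulated lines 1 was higher in shIKKE cells, the elongase gene ELOVL2 (21.1 and 70.9, 1.28).

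Of 11 measured genes of the LXR pathway (13 listed), CYP27A1, which makes an oxysterol, was lower in shIKKE cells with solvent, at 67.8 and 21.1 (log2 -1.22), and no other was 2-fold different there. NR1H3, which encodes LXRα, read between 208 and 279 on the 4 arrays. CH25H, the cholesterol 25-hydroxylase gene, was higher with stimulation in shIKKE cells (13.5 and 93.2, log2 1.96) and read 25.1 and 52.7 in control cells (0.77). PLTP, a phospholipid transfer protein gene, was lower with stimulation in shIKKE cells (126 and 50.2, log2 -1.12) and read 153 and 76.8 in control cells (-0.87). Between the stimulated lines the apolipoprotein genes APOE (90.5 and 224, 1.19) and APOC1 (10.2 and 82.4, 1.99) were higher in shIKKE cells. The 2-fold differences of this list rest on dim signals, of 224 or below.

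Averaged over the arrays by limma, with an additive model of line and stimulation adjusted over all 13717 genes, 0 of the 32 genes passed an adjusted p of 0.05 for either effect. The model has 1 residual degree of freedom, the difference between the lines' responses. For stimulation the lowest adjusted p among the 32 was 0.140, that of STARD4 (log2 1.53 ± 0.25, SE), followed by HMGCS1 (1.33 ± 0.25), and 1 gene of all (0.00729%) passed. For the line the lowest was 0.564, that of HMGCS1 (1.68 ± 0.25), SCD (1.16 ± 0.26), SQLE (1.15 ± 0.28) and DHCR7 (1.03 ± 0.25), and 0 of all genes (0%) passed. At an unadjusted p under 0.05 there were 8 of the 32 for stimulation and 14 for the line, that is 25% and 43.8%, against 13.8% and 7.29% of all genes.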

How the data were processed

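Total RNA of 4 Jurkat samples was labelled with biotin and hybridised to 1 single-colour array each, per the labels' protocols. The deposited table holds the authors' MAS5 signal, a linear intensity per probe set, per the submitters' processing notes; its version and scaling target were not given in the sources used here. With 2% trimmed at each end, the mean signal of each of the 4 arrays was 500.07. Such scaling is set mostly by bright probe sets. The number of arrays limits the precision.

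Groups came from the sample titles. Gene names came from the platform annotation, where 41091 probe sets have 1 symbol, 1801 several and 11721 none, and 41037 matched RefSeq (GRCh38.p14) by gene ID. The 62 array controls were left out. The pseudocount was the 25th percentile of all signals, 14.1. Counts of genes past 2-fold have no test. Average effects used limma 3.58.1 in R 4.3.3 (lmFit, eBayes, Benjamini-Hochberg, two-sided), tested on simulated data. The simulated response was the same in both lines, with less noise than here, so that test checks the code and not its performance on these arrays. Other steps used Python 3.11.15, pandas 2.3.3, numpy 2.4.6 and matplotlib 3.10.9.

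The members and lists were chosen with earlier results of these data known. Every listed gene was accounted for, and signals were given for those at least 2-fold different in any comparison and for SREBF1, SREBF2, SCAP and INSIG1; others shown as examples were chosen after their values were seen. From the other pathway lists, up to 4 genes at least 2-fold different per comparison were named, and TMEM97, INSIG2 and NR1H3 were added after their values were seen. Alternatives were quantile normalization, median centring, pseudocounts of 1 and of 56.4, no filter, the median of a gene's probe sets, and limma with the prior variance following the level. A value was taken to have moved where it shifted by more than 0.200 (log2), the median residual SD of the limma fit.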

Additional observations from a re-analysis of the deposited data

Results flagged for a closer look

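LSS was the 1 gene of the 32 with opposite directions under the same contrast in both lines and at least 2-fold in one of them, by the brightest probe set. With stimulation its log2 difference was 1.003 in control cells and -0.23 in shIKKE cells. The difference between these responses was not tested. The second probe set of LSS gave 0.50 and 0.93, and the median of both 0.75 and 0.35, so that the directions were then the same.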

How the results depend on the processing

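No paired analysis was possible because each group holds 1 array and no replicate numbers link the groups; the line is a term of the additive limma model. Of the 24 differences of single genes that reached 2-fold, 0 were under it without the filter or with a pseudocount of 1, 2 after quantile normalization, 4 after median centring, 4 with a pseudocount at the median signal and 7 with the median of probe sets, and 0 reversed under these 6 settings. Against the solvent array of shIKKE cells, 7 of 8 differences with stimulation in control cells were under 2-fold, and 5 reversed: HMGCS1 (-0.35), IDI1 (-0.022), LSS (-0.90), MSMO1 (-0.049) and FASN (-0.31). In these 5 the difference between the lines with solvent was larger than the response of control cells, which fixes the reversal. With that baseline the count of genes at least 2-fold higher went from 6 to 0 and the median log2 difference from 0.05 to -0.39, while 8.02% of all genes were higher and 4.38% lower, and 3 of the 32 (SREBF1, SCD and MYLIP) were lower. The count of 6 was 3 after median centring and 3 with the median of probe sets. Median centring shifted the median of all genes with stimulation from -0.07 to -0.21 in control cells and from -0.01 to -0.24 in shIKKE cells. It moved the median of the 32 genes in shIKKE cells from 0.07 to -0.16. Genes at least 2-fold lower with stimulation in shIKKE cells went from 0 to 2 after quantile normalization, 2 after median centring and 1 with the median of probe sets (MYLIP in all 3 settings, SREBF1 in the former 2), beside 3 higher in the main setting. Over all genes, quantile normalization moved the shares higher and lower from 7.57% and 6.44% to 6.12% and 8.17% in control cells, and from 10.3% and 2.68% to 7.41% and 5.02% in shIKKE cells. Genes at least 2-fold higher in shIKKE cells with solvent went from 7 to 11 after median centring (5.28% of all genes), and those lower from 2 to 1 with a pseudocount at the median signal. In limma, a pseudocount at the median signal let 4 of the 32 genes pass for stimulation (HMGCS1 and STARD4 up, ABCG1 and MYLIP down; 573 of all genes) and 1 for the line (HMGCS1, up; 39 of all). With the prior variance following the level, 8 passed for stimulation and 10 for the line (1044 and 232 of all genes); there, genes of like level share their error. The cause of these shifts was not tested. Dim genes such as MVD and ABCA1 lie near the median signal.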
